A study of Mus musculus with 12 samples.

Results

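The genes for the proteins of the mitochondrial ribosome were examined in kidneys from C57BL/6J males, mice of an inbred laboratory strain, taken at postnatal day 28. The members were all probes whose symbol in the platform annotation begins with Mrpl, for the large subunit, or Mrps, for the small subunit, followed by a number, without pseudogenes. This gave 132 probes of 76 genes, 48 of the large and 28 of the small subunit, among 19057 genes with a symbol and 45281 probes on an Illumina bead array. The ethanol group had 6 samples, taken from offspring of dams that had 10% (v/v) ethanol to drink freely between fertilization and gestation day 8.5, and the control group had 6 samples. The sample titles set the groups, because the treatment text stands on the labels of all 12 samples, controls included. The labels name neither dam nor litter, nor whether each sample is its own animal, and p-values cover only the spread among these samples. The study asked which kidney genes differ in offspring exposed to alcohol before birth.

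Mitochondria keep their own ribosome, which makes the few inner membrane proteins of the respiratory chain and ATP synthase that mitochondrial DNA encodes. All of its proteins are encoded in the nucleus, made in the cytosol and imported, and they meet ribosomal RNAs made inside the organelle. Many are relatives of bacterial ribosomal proteins and others are found only in mitochondria. Kidney tubule cells reabsorb salt and solutes at high energy cost and are rich in mitochondria.

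The promoters show the DNA that such genes share, and 4 are printed here because their genes carry the results below. Mrps18a had the highest correlation with the other members, Mrpl22 and Mrps16 had the smallest p of their subunit, and Mrpl35 had the lowest correlation. Each is a 300-base window around an annotated transcription start from RefSeq on assembly GRCm38.p6, written 5′ to 3′ on the gene's strand. Capitals mark matches to motifs of factors known to act on nuclear genes for mitochondrial proteins, searched on both strands: GCGCATGC for NRF1, CCGGAAG for ETS factors such as GABP (CTTCCGG on the reverse strand) and AAGATGGC for YY1. The Mrps18a window lies at chr17:46110754-46111053 on the plus strand and holds the ETS and the YY1 letters. The Mrpl22 window lies at chr11:58171414-58171713 on the plus strand and holds the ETS and the NRF1 letters. The Mrps16 window lies at chr14:20393441-20393740 on the minus strand and holds the reverse ETS letters at 2 places, and a second Mrps16 window of the table, at chr14:20393585-20393884, holds none of the motifs. The Mrpl35 window lies at chr6:71823735-71824034 on the minus strand and holds the YY1 letters.
Mrps18a: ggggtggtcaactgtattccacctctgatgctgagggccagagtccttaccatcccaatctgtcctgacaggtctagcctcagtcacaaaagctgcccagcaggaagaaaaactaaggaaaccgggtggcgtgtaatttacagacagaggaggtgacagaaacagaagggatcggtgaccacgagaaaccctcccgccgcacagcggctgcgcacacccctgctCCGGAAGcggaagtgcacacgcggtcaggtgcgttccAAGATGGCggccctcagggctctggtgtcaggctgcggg
Mrpl22: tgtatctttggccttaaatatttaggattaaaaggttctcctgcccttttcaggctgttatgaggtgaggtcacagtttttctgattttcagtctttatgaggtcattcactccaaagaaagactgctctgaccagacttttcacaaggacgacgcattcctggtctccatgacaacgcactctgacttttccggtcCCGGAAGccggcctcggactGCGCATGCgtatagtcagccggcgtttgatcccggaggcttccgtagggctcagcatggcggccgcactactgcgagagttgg
Mrps16: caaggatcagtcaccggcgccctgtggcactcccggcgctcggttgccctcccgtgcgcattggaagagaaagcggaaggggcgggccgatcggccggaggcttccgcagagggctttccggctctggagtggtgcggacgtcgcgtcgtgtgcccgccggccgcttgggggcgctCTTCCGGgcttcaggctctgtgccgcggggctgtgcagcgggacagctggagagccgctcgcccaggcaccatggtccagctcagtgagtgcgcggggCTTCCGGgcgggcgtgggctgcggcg
Mrpl35: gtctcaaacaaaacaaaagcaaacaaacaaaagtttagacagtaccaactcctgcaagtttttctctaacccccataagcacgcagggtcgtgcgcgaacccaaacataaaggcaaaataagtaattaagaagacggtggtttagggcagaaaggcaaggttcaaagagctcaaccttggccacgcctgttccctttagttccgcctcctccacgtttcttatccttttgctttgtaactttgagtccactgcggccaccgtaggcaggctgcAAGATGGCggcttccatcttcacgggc

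Of the 76 member genes on the array, 67 had a promoter in the RefSeq table, and 38 of these (56.7%) held at least 1 of the 3 motifs in any of their windows. The 76 include Mrpl19, Mrpl32 and Mrps14, which had no probe that passed the filter on dim probes and were not tested. Among the 10191 tested genes of the array with a promoter in the table the share was 25.3%, and among all 27025 genes of the table it was 14.9%. The ETS letters were the most frequent, in 26 member genes (38.8%, against 18% of the tested genes and 9.93% of all genes). The YY1 letters stood in 12 member genes (17.9%, against 4.76% and 3.19%) and the NRF1 letters in 8 (11.9%, against 5.29% and 3.05%). The ETS and YY1 motifs can share the bases AAG and were counted separately. Both subunits held them: 24 of 42 large and 14 of 25 small subunit genes had at least 1 motif. Among member genes with a promoter in the table, the letters were found in 22 of the 37 that correlated with the other members above 0.5 and in 6 of the 9 that correlated below 0. Mrpl11, among the genes that followed the others most closely, and Mrpl44 had none of the 3 in their windows. A match describes these letters only.

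Nearly every member was measurable in kidney. The deposited linear probe intensities, already background-subtracted, were analysed as log2 intensities after a further background correction and quantile normalization. A probe was tested where it lay above background on at least 6 of 12 arrays, which left 115 member probes of 73 genes, 46 large and 27 small. Mrpl19, Mrpl32 and Mrps14 had no tested probe. A gene was represented by its tested probe with the highest mean, and 72 of the 73 lay above background on all 12 arrays. The exception was Mrpl45, above background on 3 ethanol and 4 control arrays. Mean log2 intensity over the 12 kidneys ran from 5.22 to 12.8 for large subunit genes and from 8.18 to 13.3 for small subunit genes. Intensities of different probes depend on the probe as well as on the RNA, so no order of genes or subunits is drawn from them.

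The range of a gene over the 12 kidneys had a median of 0.60 on the log2 scale for members and 0.87 for all tested genes, and the median within-group SD was 0.16 for members and 0.25 for all genes. The narrowest range was 0.18, for Mrps12, a protein of the decoding centre. The widest was 1.75, for Mrpl4, a protein of the exit tunnel, and the widest of the small subunit was 1.16, for Mrps11, a protein of the platform.

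The arrays were similar and 3 of them stood apart. Over the tested probes any pair of arrays correlated at 0.952 to 0.992, and 50.4% to 56.8% of probes lay above background. On the first principal component of all tested probes ethanol 2 and ethanol 3 lay at 45.6 and 37.5, and control 4 lay at -62.5. Next came control 6 (-28.8), ethanol 6 (-24.9) and control 2 (23.4). The sign of the component was set so that the ethanol mean was the higher, so its direction carries no result. Control 4 also had the lowest array quality weight (0.266), and the background of ethanol 2 and control 4 was the highest of their groups (9.49 and 7.79). Of 14 markers of kidney tubule and glomerulus 13 were tested. Their summed deposited intensity, with values below 0 set to 0 and no further normalization, was 232581 to 257070 in ethanol and 215786 to 253107 in control samples.

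No member probe passed the threshold in ethanol against control. In limma, 0 of 115 member probes had an adjusted p under 0.05, against 0% of the 23984 probes tested, and the smallest adjusted p of a member was 0.379. An unadjusted p under 0.05 was found for 21 member probes, all 21 below 0 in ethanol minus control. They were 18.3% of the member probes, where all tested probes gave 12.2% in both directions together. Counted by gene, 54 of 73 members lay below 0 and 19 above, with a median log2 difference of -0.08. Over all 12617 tested genes 45.4% lay below 0 and the median was 0.02. Of the members 14 (19.2%) lay below 0 at an unadjusted p under 0.05, where 4.96% of all genes did, and 0 lay above 0 at that p, where 4.75% of all genes did. Fewer cells of a type and less RNA per cell cannot be told apart in RNA from whole kidney.

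The count of 14 depended on which samples were used. It was 3 without ethanol 2, 4 without ethanol 3, 5 without control 3 (1 of these above 0), 7 without ethanol 5 and 7 without control 4. It was 9 without ethanol 4, 9 without control 6 (1 of these above 0) and 17 without ethanol 1. Without ethanol 2, 4.11% of members lay below 0 at an unadjusted p under 0.05, where 2.69% of all genes did. The share was 5.48% without ethanol 3 (all genes 2.97%), 5.48% without control 3 (3.97%) and 9.59% without ethanol 5 (3.46%). It was 9.59% without control 4 (3.71%), 12.3% without ethanol 4 (5.23%), 11% without control 6 (3.77%) and 23.3% without ethanol 1 (5.63%). Without control 4 and ethanol 2 together the count was 2 (2.74% of members, where 2.59% of all genes lay below 0 at that p). Without control 3 and control 4 together it was 1 (1.37% of members, where 2.71% of all genes lay below 0 at that p), with 39 of 73 members below 0 (53.4%, where all genes gave 46.1%) and a median of -0.02. The number of members below 0 stayed between 46 and 58 with each sample left out in turn.

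**Figure D1:**
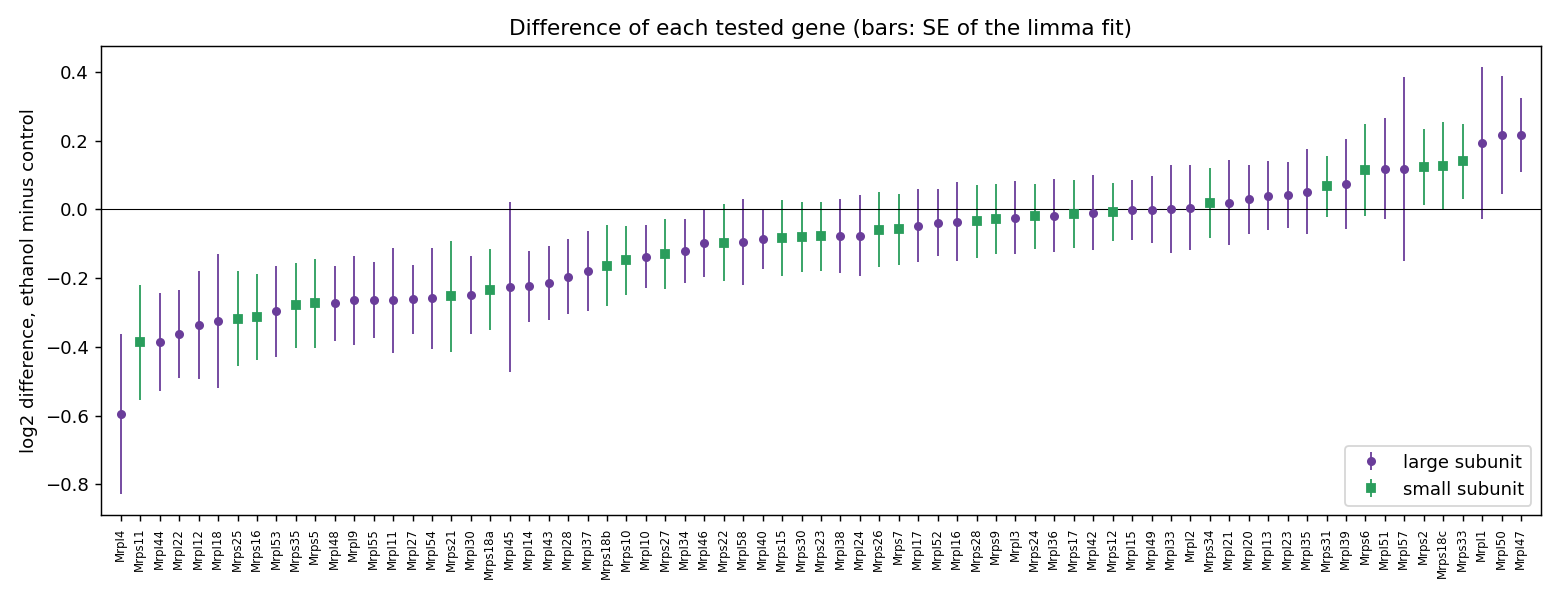
Log2 difference in ethanol minus control (y axis) for each of the 73 tested member genes (x axis, ordered by the difference), with large subunit genes as circles, small subunit genes as squares and the SE of the limma fit as bars. Of the 73 genes 54 lie below 0, from -0.59 for Mrpl4 to 0.22 for Mrpl47 at the other end, and both subunits are spread along the whole order.

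Averaged over all members, the ethanol and control kidneys overlapped. With each gene centred on its mean over the 12 kidneys, the members' mean was 0.098, -0.12, -0.10, -0.11, -0.027 and -0.048 in ethanol 1 to 6. It was -0.040, -0.056, 0.19, 0.13, 0.007 and 0.074 in control 1 to 6. The group means were -0.051 ± 0.081 in ethanol and 0.051 ± 0.097 in control (SD, n = 6 each). Ethanol 1 stood among the high controls, and control 1, control 2, control 5 and control 6 lay within the range of the ethanol samples. Control 5 and control 6 did so only through ethanol 1. Of the 73 members, 60, 30, 23, 13, 26 and 25 lay above their own median over all kidneys in ethanol 1 to 6, and 25, 25, 64, 57, 37 and 53 did in control 1 to 6. Ethanol 4 therefore had most members low, and control 3 and ethanol 1 had most members high.

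The large and the small subunit gave nearly the same picture. Large subunit genes lay below 0 in 33 of 46 cases, with a median of -0.08 and 10 at an unadjusted p under 0.05, and in 28 of 46 cases with median scaling of the arrays. Small subunit genes lay below 0 in 21 of 27 cases, with a median of -0.08 and 4 at that p, and in 20 with median scaling. For the small subunit it was 16 of 27 with array quality weights (median -0.033) and 17 of 27 without control 4 (median -0.040), and the median was -0.046 without control 3. Without control 3 and control 4 the medians were -0.02 for the large and 0.0001 for the small subunit. The per-kidney mean of the large subunit was -0.053 ± 0.088 in ethanol and 0.053 ± 0.095 in control samples, and that of the small subunit was -0.046 ± 0.074 in ethanol and 0.046 ± 0.11 in control samples (SD, n = 6 each). Large minus small was -0.0077 ± 0.037 in ethanol and 0.0078 ± 0.037 in control samples, a difference of -0.0155 that is smaller than the SD of either group. Within a kidney the subunits stood furthest apart in control 4 (-0.066), ethanol 6 (-0.056) and ethanol 4 (-0.052), where the large subunit was the lower. Mrps30 and Mrps18a carry small subunit names but sit in the large subunit of the mammalian ribosome, and they were counted by name. Members were also split by the number in their names into families shared with bacteria (Mrpl up to 36, Mrps up to 21) and the rest, mostly particular to mitochondria, a split made after values were seen. Of the first, 30 of 41 lay below 0 (median -0.08, 8 at p under 0.05), and of the second, 24 of 32 (median -0.08, 6 at p under 0.05).

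**Figure D2:**
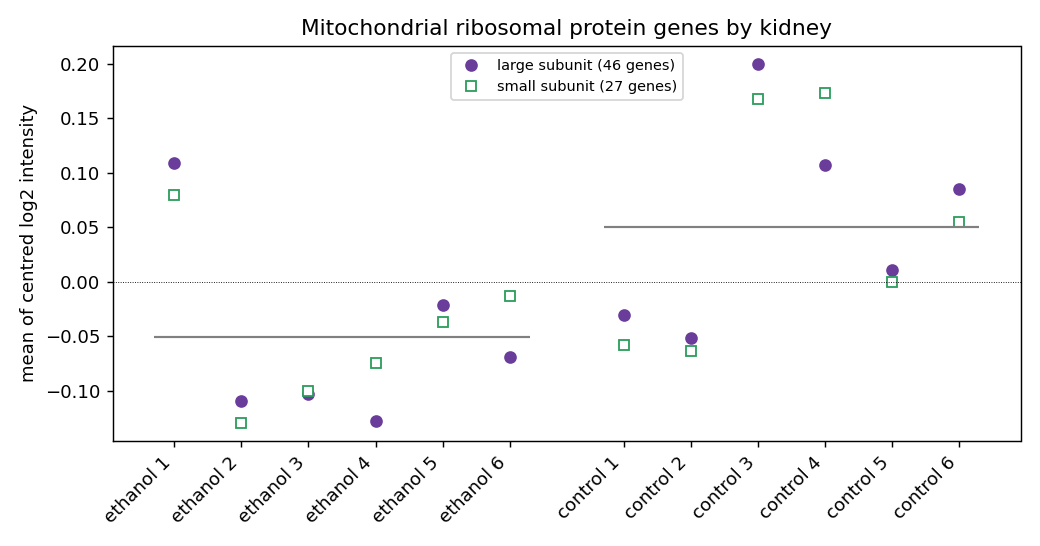
Mean of the centred log2 intensities (y axis) of the 46 large subunit genes (filled circles) and the 27 small subunit genes (open squares) in each of the 12 kidneys (x axis), with grey lines at the group means over all members. The circle and the square of a kidney lie close together, ethanol 1 lies above the ethanol line with 0.11 for the large subunit, and control 1 and 2 lie below the control line.

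Among large subunit genes, Mrpl22 had the smallest unadjusted p. It encodes a protein that lines the tunnel through which the new chain leaves the ribosome. Mrpl22 had log2 intensities of 10.87, 10.14, 10.20, 10.36, 10.40 and 10.59 in ethanol 1 to 6, against 10.75, 10.56, 10.87, 10.80, 10.85 and 10.91 in control 1 to 6. Its log2 difference was -0.36 ± 0.13 (SE, limma unadjusted p = 0.0127, adjusted p = 0.379). Of the ethanol samples 4 lay below all controls, while ethanol 1 was at the height of the controls and ethanol 6 just above control 2.

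Mrpl44, a protein with a ribonuclease III fold, had log2 intensities of 9.10, 8.44, 8.75, 8.81, 8.86 and 8.99 in ethanol 1 to 6. In control 1 to 6 they were 9.24, 8.73, 9.37, 9.39, 9.13 and 9.43. The log2 difference was -0.39 ± 0.14 (SE, limma unadjusted p = 0.0163, adjusted p = 0.379). All controls but control 2 lay above all ethanol samples.

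Mrpl27, relative of a bacterial protein near the peptidyl transferase centre, was the 1 member whose groups did not overlap, where 0.476% of all tested genes did not. It had 11.54, 11.54, 11.54, 11.55, 11.56 and 11.31 in ethanol 1 to 6, against 11.59, 11.64, 12.04, 11.77, 11.77 and 11.79 in control 1 to 6, as log2 intensities. The log2 difference was -0.26 ± 0.10 (SE, limma unadjusted p = 0.0209, adjusted p = 0.379). The gap between the groups was narrow, between 11.56 in ethanol 5 and 11.59 in control 1, and 5 ethanol samples lay almost on one level.

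Mrpl4, also of the exit tunnel, had the largest log2 difference of any member, at -0.59 ± 0.23 (SE, limma unadjusted p = 0.0227). Its log2 intensity averaged 9.41 ± 0.53 in ethanol and 10.01 ± 0.36 in control samples (SD, n = 6 each). The groups overlapped, since ethanol 6 had 10.14 and control 2 had 9.41. Mrpl48 had a log2 difference of -0.27 (limma unadjusted p = 0.0254) and Mrpl55 of -0.26 (unadjusted p = 0.0312), and both belong to the proteins found only in mitochondria.

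Among small subunit genes, Mrps16 came first by p. Its bacterial relative is needed early in the assembly of the subunit. Mrps16 had log2 intensities of 10.63, 9.97, 10.15, 10.31, 10.27 and 10.42 in ethanol 1 to 6, against 10.68, 10.35, 10.84, 10.59, 10.48 and 10.70 in control 1 to 6. Its log2 difference was -0.31 ± 0.13 (SE, limma unadjusted p = 0.0245, adjusted p = 0.379). Ethanol 2 was the lowest of the 12 kidneys and ethanol 1 lay among the controls.

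Mrps11 had log2 intensities of 9.05, 8.34, 8.28, 8.67, 8.56 and 9.13 in ethanol 1 to 6. In control 1 to 6 they were 8.91, 8.74, 9.15, 9.44, 8.90 and 9.20. The log2 difference was -0.39 ± 0.17 (SE, limma unadjusted p = 0.0370, adjusted p = 0.397), and 4 ethanol samples lay below all controls while ethanol 1 and ethanol 6 did not. Mrps25 (log2 difference -0.32, unadjusted p = 0.0376), Mrps35 (-0.28, unadjusted p = 0.0389), Mrps5 (-0.27, unadjusted p = 0.0523) and Mrps18a (-0.23, unadjusted p = 0.0650) followed. Mrps25 and Mrps35 are mitochondrial additions to the subunit, and Mrps5 has a bacterial relative at the entry of the messenger RNA.

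**Figure D3:**
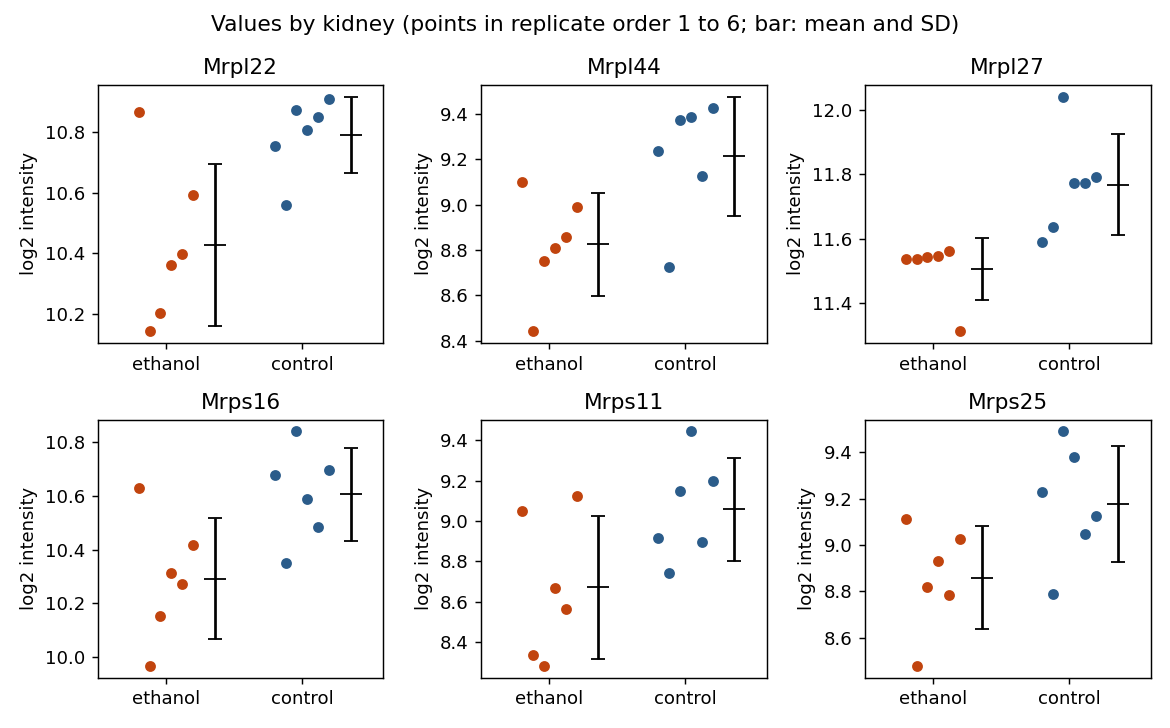
Log2 intensity (y axis, a separate scale in each panel) in the 6 ethanol and the 6 control kidneys (points, replicates 1 to 6 from left to right) for the 3 genes of each subunit with the smallest unadjusted p, with the mean and SD as bars. Of these 6 genes Mrpl27 has groups that do not overlap, and ethanol 1 is the highest ethanol point for Mrpl22, Mrpl44, Mrps16 and Mrps25.

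The other members at an unadjusted p under 0.05, Mrpl12, Mrpl14, Mrpl30 and Mrpl53, had log2 differences from -0.34 to -0.22. They lie outside the rule for naming genes and are named because the count was small. Mrpl12 forms the flexible stalk that recruits translation factors. On the other side no member reached that p, and the highest log2 difference was 0.22 for Mrpl47 (limma unadjusted p = 0.0630), also named after its value was seen.

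Different probes of a gene did not always have the same sign. More than 1 probe was tested for 27 member genes, 10 of which had probes on both sides of 0, and the median correlation between probes of a gene over the kidneys was 0.546. Mrpl15 had 6 tested probes with log2 differences from -0.48 (limma unadjusted p = 0.00883, a dim probe with a mean log2 intensity of 6.14) to 0.013, and its brightest probe gave -0.0021. Mrps10 had probes from -0.40 (unadjusted p = 0.0158) to 0.014, with -0.15 on the brightest. For Mrps25 the brightest probe gave the -0.32 above, and its other probes gave 0.033 and -0.095. In Mrps18b, chosen after its values were seen, all 3 probes lay below 0, at -0.64 (unadjusted p = 0.00309), -0.56 (unadjusted p = 0.0322) and, on the brightest, -0.16 (unadjusted p = 0.188). The differences of such genes hold for a probe rather than for the gene.

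Members moved together from kidney to kidney, within and between subunits alike. Correlations were taken over the 12 kidneys after each group was centred on its own mean, and they share the arrays and their normalization. Over the 2628 pairs of members the median Pearson r was 0.28, and 73.6% of pairs lay above 0. It was 0.27 over pairs of large subunit genes, 0.29 over pairs of small subunit genes and 0.29 over pairs of a large and a small subunit gene. Over all pairs of tested genes the median was 0.0089, and over pairs of genes above background on all 12 arrays it was 0.013. For comparison, the 52 tested cytosolic ribosomal protein genes had a median of 0.21 among themselves and 0.11 with the members. The 36 tested genes for subunits of complex I, the first enzyme of the respiratory chain, had 0.17 among themselves and 0.23 with the members. Pairs of bacterial-type members had 0.30 and pairs of the others 0.24.

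A core of members followed the mean of all the others closely. The correlation of a gene with that mean had a median of 0.57 over members, 0.55 for large and 0.61 for small subunit genes. It lay above 0.5 for 43 genes, 27 large and 16 small. In the large subunit it was highest for Mrpl11, at the base of the stalk (r = 0.915, n = 12 kidneys), Mrpl48 (0.885) and Mrpl34 (0.873). In the small subunit names it was highest for Mrps18a, a relative of bacterial S18 (0.919), Mrps15, which binds the ribosomal RNA early in assembly (0.806), and Mrps28 (0.751).

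Mrps18a had log2 intensities of 10.59, 10.15, 10.12, 10.13, 10.21 and 10.18 in ethanol 1 to 6, against 10.28, 10.36, 10.65, 10.71, 10.34 and 10.44 in control 1 to 6. Ethanol 1 stood apart from the other ethanol samples, and control 3 and control 4 were the highest controls. Mrpl11 had 9.21, 8.68, 8.55, 8.68, 8.64 and 8.85 in ethanol 1 to 6, against 8.64, 8.85, 9.51, 9.23, 8.94 and 9.03 in control 1 to 6. Its high samples were those of Mrps18a, and control 1 was its lowest control. The log2 difference of Mrpl11 was -0.26 ± 0.15 (SE, limma unadjusted p = 0.106), and those of Mrpl34, Mrps15 and Mrps28 were -0.12, -0.083 and -0.035 with p from 0.218 to 0.744.

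**Figure D4:**
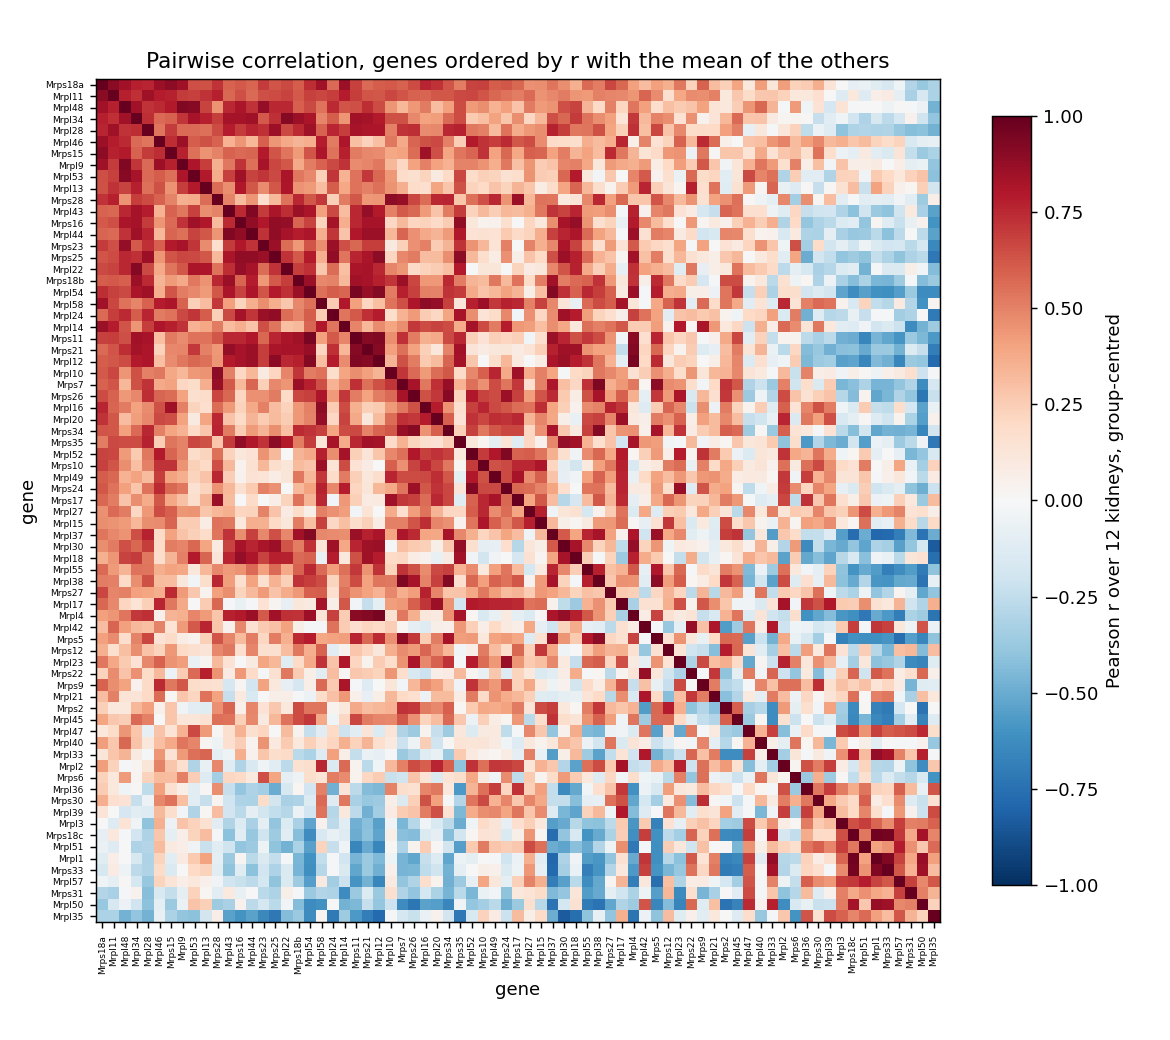
Pearson r (colour) between each pair of the 73 member genes over the 12 group-centred kidneys, with genes on both axes ordered by their correlation with the mean of the other members, from Mrps18a (0.919) to Mrpl35 (-0.352). The upper left is mostly positive and a small block at the lower right, with Mrpl1, Mrps18c, Mrps33 and Mrpl50, is positive within itself and mostly negative with part of the rest.

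A few members went their own way on their brightest probe, some of them through control 4. The correlation with the other members lay below 0 for 9 genes. It was lowest in the large subunit for Mrpl35 (r = -0.352) and Mrpl50 (-0.262), and in the small subunit for Mrps31 (-0.135) and Mrps33 (-0.0966). These values hold for the brightest tested probe of a gene and not for its other probes. Mrps31, Mrpl3 and Mrpl51 had 3 tested probes each, with a median r between probes of 0.431, 0.442 and 0.209. Mrps33 had 2, at 0.511. Without control 4 it lay below 0 for 3 genes, of which 2 were below 0 with it too: Mrpl35 (-0.293) and Mrpl51 (-0.039). Mrpl1 then had 0.451, Mrps18c 0.355, Mrpl50 0.318 and Mrps33 0.257. Mrps31 (0.0242), Mrpl57 (0.0495) and Mrpl3 (0.111) stayed far below the median over members, which was 0.59, and 44 genes lay above 0.5. Mrpl1, Mrps18c, Mrpl57 and Mrpl3 lie outside the rule for naming genes.

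Among these genes the closest pair of all members stood out, Mrpl1 and Mrps18c, named after their values were seen. They correlated at 0.965, and at 0.927 without control 4. Mrpl1 had log2 intensities of 10.04, 10.01, 9.90, 9.52, 9.68 and 9.43 in ethanol 1 to 6, against 9.56, 9.79, 10.14, 8.53, 9.78 and 9.63 in control 1 to 6. Mrps18c had 12.70, 12.79, 12.61, 12.50, 12.62 and 12.40 in ethanol 1 to 6, against 12.37, 12.64, 12.76, 12.02, 12.58 and 12.50 in control 1 to 6. Control 4 was the lowest kidney for both, and ethanol 6 was the lowest ethanol sample for both. Mrpl50 was likewise lowest in control 4, at 11.77 where the other 11 kidneys had 12.73 to 12.98. The values of Mrpl1 are those of the brightest of its 3 tested probes. Its second brightest probe was likewise lowest in control 4 (6.77), and its lowest ethanol sample was ethanol 6 (7.09). The dimmest probe, with a mean log2 intensity of 5.26, was above background on 5 ethanol and 3 control arrays and was highest in control 4 (5.86). The median r between the 3 probes was -0.600.

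Mrpl35 ran against the core with control 4 and without it. Its log2 intensities were 7.67, 8.24, 7.75, 7.52, 7.84 and 7.59 in ethanol 1 to 6, against 7.73, 7.71, 7.63, 7.56, 7.85 and 7.80 in control 1 to 6. It was highest in ethanol 2, where the members' mean was lowest. With Mrpl30 it formed the most opposed pair of members, at r = -0.834, and at -0.828 without control 4.

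**Figure D5:**
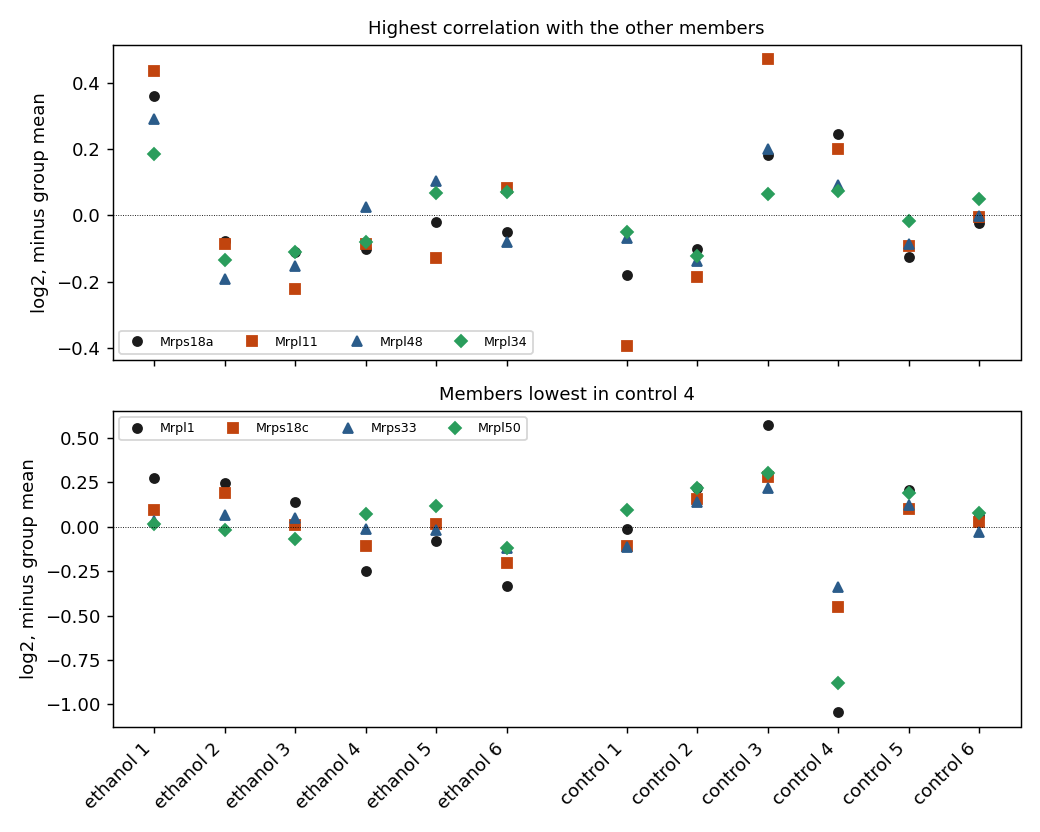
Log2 intensity minus the mean of the kidney's group (y axis) in the 12 kidneys (x axis) for the 4 members with the highest correlation with the others (upper panel) and for Mrpl1, Mrps18c, Mrps33 and Mrpl50 (lower panel). The upper genes are high in ethanol 1, control 3 and control 4 together, while the lower genes are all at their lowest in control 4, where Mrpl1 had 8.53 and Mrps18c 12.02.

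Lists of genes that work with the mitochondrial ribosome had medians on both sides of 0, from -0.059 to 0.039. Of the mitoribosome proteins with other names, such as the death-associated GTPase Dap3, 4 of 5 were on the array and tested, 0 lay below 0 and the median was 0.039. Of 17 mitochondrial translation factors 9 lay below 0 (median -0.059), with 1 at an unadjusted p under 0.05 on each side: the elongation factor gene Tsfm at -0.37 (unadjusted p = 0.0405) and the release factor gene Mtrf1l at 0.42 (unadjusted p = 0.0177). Of 22 tested genes for assembly and ribosomal RNA modification 12 lay below 0 (median -0.025), and Mpv17l2, an assembly factor of the inner membrane, had -0.40 (unadjusted p = 0.00543). Of 17 tested genes for charging mitochondrial tRNAs, which are tRNA synthetases and the amidotransferase subunits Qrsl1, Gatb and Gatc, 9 lay below 0 (median -0.014). Sars2 (-0.57, unadjusted p = 0.0176), Cars2 (-0.47, unadjusted p = 0.0192) and Tars2 (-0.50, unadjusted p = 0.0224) were the ones below 0 at that p, and Wars2 (0.29, unadjusted p = 0.0424), outside the rule for naming, was the one above. All are from limma, where 0 genes of these lists had an adjusted p under 0.05. Under the alternative scalings the counts below 0 of the last 3 lists were the same, and 1 of the 4 proteins with other names lay below 0.

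Most regulators lay above 0. Of 15 tested genes for mitochondrial transcription and biogenesis 12 did, with a median of 0.15, where 6890 of all 12617 tested genes did. The count was 13 with median scaling and 10 without control 4 (median 0.072). Without control 4 and ethanol 2 it was 9 (median 0.049). Nrf1, which encodes the factor whose motif was searched above, had 9.59 ± 0.16 in ethanol and 9.28 ± 0.17 in control samples (log2 intensity, SD, n = 6 each), a log2 difference of 0.31 (limma unadjusted p = 0.0155, adjusted p = 0.379). No other gene of that list had an unadjusted p under 0.05.

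Other protein complexes also had medians below 0. Of 52 tested cytosolic ribosomal protein genes 34 lay below 0 (median -0.050, 3 at an unadjusted p under 0.05, all below 0), against a members' median of -0.08. With median scaling the order was the other way round, with 39 of 52 cytosolic genes below 0 (median -0.070) and 48 of 73 members (median -0.058). Of 36 tested complex I genes 22 lay below 0 (median -0.040, 0 at that p in limma), and the median was -0.0063 without control 3, where that of the cytosolic genes was -0.022. Their per-kidney means were low with the members' in ethanol 2 (-0.15 for cytosolic ribosomal, -0.14 for complex I and -0.12 for member genes) and high with them in control 3 (0.20, 0.14 and 0.19). The cytosolic genes went the other way in control 1 (0.075, with members at -0.040) and in control 6 (-0.041, with members at 0.074).

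Markers of other cells had lower or higher sums in some groups and kidneys too. The sums are of deposited intensities, with values below 0 set to 0 and no further normalization. Of 11 immune cell markers 10 were tested, and 9 lay below 0 with a median of -0.36. At an unadjusted p under 0.05 in limma 6 lay below 0, where 4.96% of all genes did. Csf1r was at -0.036 and Ptprc at 0.093. The summed intensity of the 10 markers was 1567 to 2392 in ethanol and 2144 to 2758 in control samples. Cd79a was the marker not tested, and Cd3d was above background on 2 ethanol and 6 control arrays. Of 7 blood markers 4 were tested and lay below 0 (median -0.23), with sums of 36078 to 66703 in ethanol and 52624 to 69308 in control samples. Hba-a1 was by far the brightest of the 4, at a mean log2 intensity of 15.5 in ethanol and 15.7 in control samples. The blood sum is therefore mostly that of Hba-a1. Of 8 fat markers 5 were tested, with sums of 62.6 to 5005 in ethanol and 84.8 to 2769 in control samples. The fat sum was lowest in ethanol 1 and control 6, whose members' means were among the high ones, and highest in ethanol 4, where most members were low. The median of the 5 fat genes was 0.27 with all samples and -0.24 without control 6. Of 6 adrenal markers 1 was tested, Cyp11a1, at a log2 difference of 0.46 (limma unadjusted p = 0.0367), and Cyp11b1, Cyp21a1, Star, Hsd3b1 and Cyp17a1 were not above background on enough arrays. In the kidney list itself 5 of 13 lay below 0, or 8 of 13 with median scaling, and Aqp3 (-0.38, unadjusted p = 0.0454) and Nphs1 (-0.47, unadjusted p = 0.0487) were at an unadjusted p under 0.05. The part of these cells in the members' differences was not tested.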

How the data were processed

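Total RNA from 12 kidneys was biotin-labelled and hybridised to Illumina arrays; per the labels' protocols RNA integrity numbers were 8 to 9. The deposited intensity values came from GenomeStudio, per the submitters' processing notes. Not given in the sources used here are its version, the background method, any scaling and the genome build. A second table, whose 24 columns of values match no label, was not used.

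Each array's background mean (mode, bandwidth 2, below the 0.6 quantile) and SD fed a normal-exponential correction with offset 16, then quantile normalization and log2 in limma 3.58.1 (R 4.3.3, statmod 1.5.0). A probe counted as above background at a normal probability under 0.05. Ethanol minus control was fitted with lmFit and eBayes, adjusted by Benjamini-Hochberg over 23984 probes, with a call at an adjusted p under 0.05. Of 45281 probes the platform annotation gave 34885 a symbol, 18 several and 10378 none; 34807 matched RefSeq and 0 symbols were altered. The number of arrays limits the precision. The fit was tested on simulated data.

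The members and lists were chosen with earlier results of these data known. Genes were named by rule: per subunit, the 6 smallest p, the 3 highest and 2 lowest correlations with the other members and the widest range, genes with probes of opposite sign with an unadjusted p under 0.05 on a probe, and up to 3 genes a list under that p; exceptions are stated. Same-numbered samples of the groups correlated at 0.0007 to 0.465, over 0.1 in 1 of 6 pairs, so the numbers were not taken as pairs. Alternatives covered background correction, offset (50), scaling, filters, probes averaged, weights, variance prior, the replicate block, centring, the subunit of Mrps30 and Mrps18a, and samples left out.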

Additional observations from a re-analysis of the deposited data

Results flagged for a closer look

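In 4 of the 50 sets of 6 values examined for the named members and the subunit means, the highest or lowest kidney was far from the rest of its group, with a gap over the whole range above Dixon's critical value for 6 samples. Chance gives about 1 in 20 for independent sets that were not selected. These sets share the same 12 arrays and the genes were picked from these same values, so that rate cannot be applied to them. For Mrpl27 in ethanol samples the ratio was 0.9, with ethanol 6 lowest at 11.31 and the next at 11.54. For Mrps5 in ethanol samples it was 0.843, with ethanol 6 highest at 9.09 and the next at 8.60. For Mrps18a in ethanol samples it was 0.808, with ethanol 1 highest at 10.59 and the next at 10.21. For Mrpl50 in control samples it was 0.812, with control 4 lowest at 11.77 and the next at 12.73. All are log2 intensities, and the cause was not tested.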

How the results depend on the processing

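No alternative called a member probe at an adjusted p under 0.05, with each sample left out in turn included (0 to 0). The 14 member genes at an unadjusted p under 0.05 became 6 with the deposited values as they stand, 2 without control 4 and ethanol 2, 1 without control 3 and control 4 (both chosen after seeing the data), and 3 to 17 with each sample left out in turn. It became 20 with no filter, 19 with an offset of 50, 18 with the robust variance prior with trend, and 10 to 15 with the other processing alternatives. With the deposited values as they stand 8.22% of members lay below 0 at that p, where 3.65% of all genes did. The share was 25% with no filter (all genes 4.46%), 24.7% with an offset of 50 (5.53%) and 24.7% with that prior (5.3%). The replicate block gave 11 genes, and 1 of 6 samples correlated best with its own number. With the block 15.1% of members lay below 0 at that p, where 6.83% of all genes did. In the main fit these shares were 19.2% and 4.96%. They were 19.2% and 6.65% with array weights, and 13.7% and 4.84% with median scaling. Without background correction they were 15.1% and 4.5%. They were 20.8% and 5.41% with a stricter filter, and 20.5% and 6.13% with probes averaged. The median difference was -0.0994 to -0.0526, the members below 0 were 46 to 58, the median pairwise r was 0.239 to 0.334 and large minus small was -0.0301 to -0.0059 with each sample left out in turn. The median pairwise r was 0.384 with the deposited values as they stand. The named genes that changed sign had differences from -0.083 (Mrps15) to 0.067 (Mrps31) in the main fit. Mrpl35 had -0.042 without ethanol 2, -0.072 without control 4 and ethanol 2, and -0.0061 without control 3 and control 4, and -0.0419 to 0.1022 with each sample left out. Mrps15 had 0.0091 without control 3 and control 4, Mrps28 had 0.027 there and -0.0848 to 0.0075 with each sample left out, and Mrps31 had -0.062 with probes averaged. Mrpl15 had 0.021 with median scaling, 0.018 with deposited values, 0.030 with array weights, 0.0074 and 0.037 without those pairs of samples, and -0.0264 to 0.0168 with each sample left out. The cause was not tested. Dim probes, such as that of Mrpl45, depend most on the background estimate.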
